A study of Homo sapiens with 30 samples.

Results

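The 9 genes HOXB13, GATA2, GATA3, SPDEF, GRHL2, EHF, ELF3, SOX9 and ONECUT2 encode transcription factors of luminal prostate epithelium or of closely related epithelia. They were taken by gene symbol from the deposited expression tables, which list values for 26443 genes. All 9 are listed, 8 reached a value of 1 in at least 1 library, and GATA3 never did. The cells were LNCaP, a line grown from a human prostate cancer metastasis that still responds to androgen, and 30 RNA libraries make up 10 groups with 3 in each. In the first experiment, cells carried an shRNA against USP7 (a deubiquitinase), BUB3 (a spindle checkpoint protein) or FOXA1 (a pioneer factor that opens chromatin), or the pLKO control, for 5 days. In the second, they received an siRNA against EZH2, the enzyme of the polycomb complex PRC2 that methylates histone H3, or a control siRNA, siCtrl, for 4 days. In the third, on the pGIPZ vector, cells had shFoxA1 with FOXA1 carrying the K295A substitution (K295A), shFoxA1 with wild-type FOXA1 (WT), shFoxA1 alone, or the pGIPZ control. Per the labels, the re-expressed proteins carry an HA tag and RNA was taken after 5 days, but the range of sample names given for that experiment stops before the third K295A library. All groups come from this 1 line, and the labels do not say whether the 3 libraries of a group came from separate cultures, so each p-value rests on library-to-library variation that could be purely technical.

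In prostate luminal cells, FOXA1, HOXB13 and GATA2 bind the enhancers that control the luminal and androgen-responsive programme. GATA factors and FOXA1 can bind closed chromatin and make sites accessible to other factors. The ETS-family factors SPDEF, EHF and ELF3 and the grainyhead factor GRHL2 maintain genes of differentiated and junction-forming epithelia. SOX9 is best known from progenitor cells and from the budding prostate epithelium. ONECUT2, a homeodomain factor of liver and pancreas development, has been studied in prostate cancers that no longer depend on androgen.

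The third shBUB3 library stood apart: its FPKM values had a sum of 367614, where the remaining 11 of that experiment had sums of 235344 to 306578. Depth, judged from the step between low values, was 0.602 to 1.30 times that of the first pLKO library in the FPKM table, and 0.847 to 1.298 times that of the first pGIPZ library in the RPKM table. The targeted RNAs were lower in their own groups. USP7 averaged 6.21 FPKM in shUSP7 cells and 28.2 in pLKO cells, BUB3 4 FPKM in shBUB3 cells and 36.3 in pLKO cells, and EZH2 4.98 FPKM in siEZH2 cells and 12.6 in siCtrl cells. FOXA1 averaged 59 FPKM in shFOXA1 cells and 116 in pLKO cells, so about 50.9% of its RNA level remained. In the third experiment it averaged 151 RPKM with K295A, 152 with WT, 82.5 with shFoxA1 alone and 132 in pGIPZ. A gene-level value cannot separate the cell's own FOXA1 from the introduced one. The same RNAs moved in other groups as well. FOXA1 was lower in siEZH2 cells too, at 91.2 FPKM against 133 in siCtrl cells (-0.54, or -0.33 after rescaling by median ratios). EZH2 was lower in shUSP7 (6.27 FPKM), shBUB3 (4.55) and shFOXA1 cells (5.87), against 12.6 in pLKO cells, or 0.5, 0.362 and 0.467 of that level, where siEZH2 left 0.396 of the siCtrl level. BUB3 was lower in shFOXA1 cells, at 15.6 FPKM or 0.429 of the pLKO level, and in shUSP7 cells at 0.781 of it. In shFoxA1 cells of the third experiment neither EZH2 nor BUB3 differed at an adjusted p under 0.05 (limma). EZH2 stood there at 9.59 RPKM, against 9.78 in pGIPZ cells (-0.03, adjusted p = 0.6). BUB3 stood at 31 RPKM, against 32.1 in pGIPZ cells (-0.05, adjusted p = 0.43). Of 20 luminal markers, 20 reached a value of 1 in some library, with sums of 833 to 3290 per library. Sums were 3.28 to 26.0 over 10 basal markers, 2.42 to 8.55 over 12 neuroendocrine, 7.18 to 32.1 over 10 stromal, 2.61 to 35.5 over 10 immune and 0.742 to 4.88 over 6 endothelial markers.

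Levels were compared between factors per unit of transcript length. HOXB13, EHF, SPDEF and GATA2 were among the most abundant RNAs of LNCaP control cells. SOX9 and ONECUT2 averaged between 0.744 RPKM (ONECUT2 in pGIPZ) and 2.79 FPKM (SOX9 in siCtrl) there, and GATA3 was listed at 0 in most libraries. HOXB13 averaged 114 ± 1.21 FPKM in pLKO cells (SD, n = 3), and only 1.29% of genes were higher. EHF followed with 91.8 ± 0.65, SPDEF with 83.6 ± 3.67, GATA2 with 62.4 ± 0.577, GRHL2 with 29.3 ± 1.20 and ELF3 with 11.7 ± 0.747 FPKM. The 3 values of neighbours in this order did not overlap in pLKO cells. SOX9 stood at 1.40 ± 0.252 FPKM and ONECUT2 at 1.02 ± 0.0939 FPKM, with 42.3% and 44.7% of genes above them. In siCtrl cells the order differed at the top, with EHF at 113 ± 6.75 FPKM and HOXB13 at 100.1 to 100.3 FPKM. In pGIPZ cells ELF3 reached 48.2 ± 2.05 RPKM, and its 3 values overlapped those of GATA2 (50.4 ± 0.726 RPKM). GATA3 was listed at 0 in 25 of 30 libraries and nowhere exceeded 0.0245, so it was not tested, whereas ACTB, GAPDH, POLR2A, RPLP0 and TBP were at 1 or more in all 30 libraries.

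**Figure D1:**
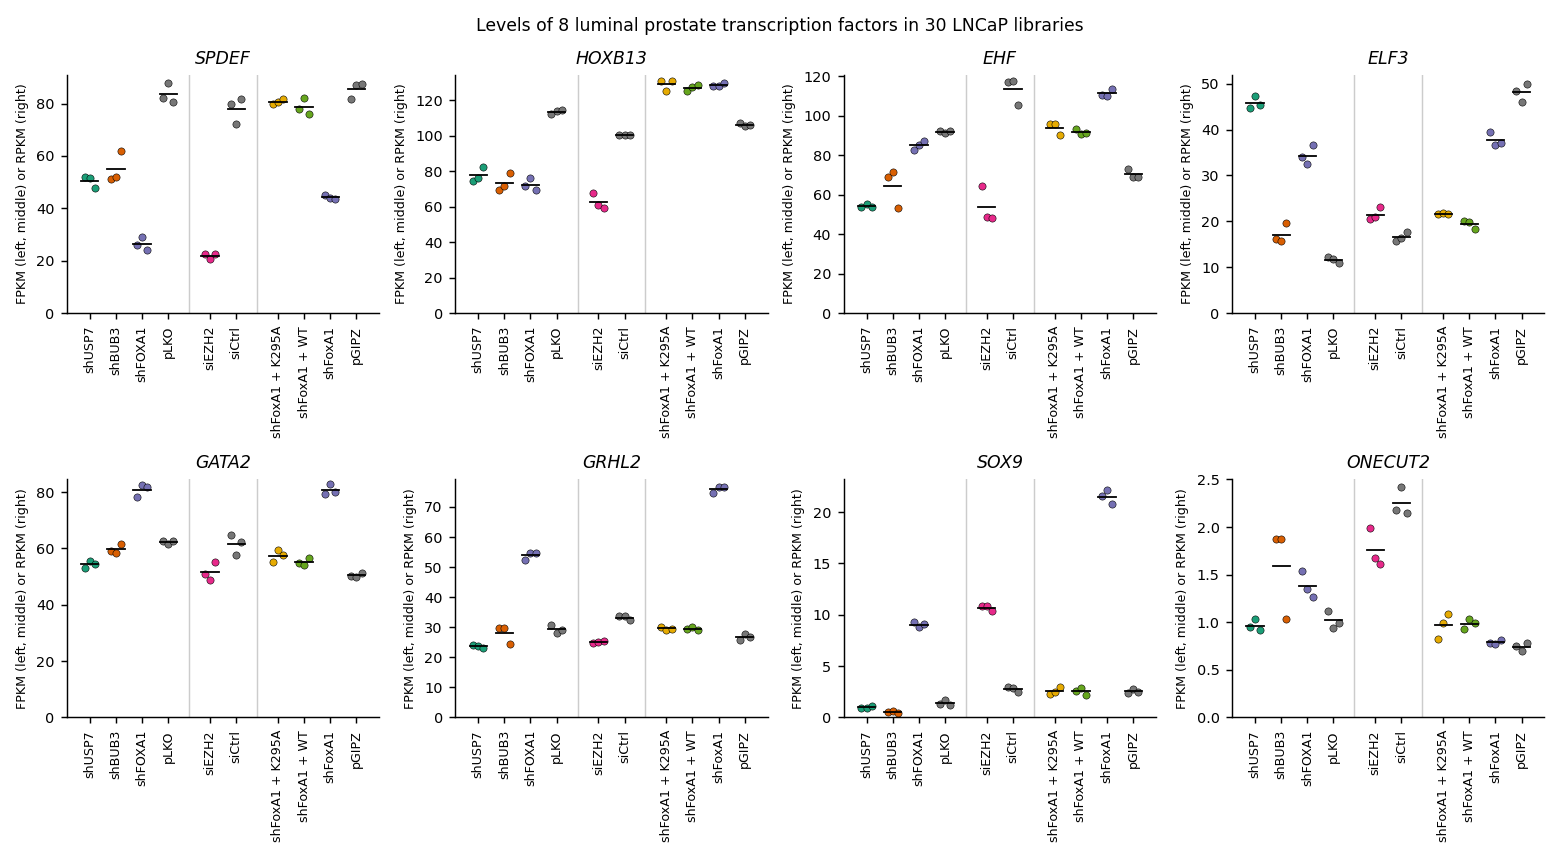
Level of each factor in every library, in FPKM for the first 2 experiments and in RPKM for the third, separated by grey lines; each point is 1 library and each black bar a group mean. SOX9 stands high in shFOXA1, siEZH2 and shFoxA1 cells, and SPDEF stands low in the same groups. GATA3 is not drawn, since no library exceeded 0.0245.

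Each group was then set against its own control on the log2(value + 1) scale, which understates the change of genes near 1. A gene was called at an adjusted p under 0.05 from limma. In shUSP7 cells 7 of 8 tested factors were called, 6 lower and 1 higher, where 62.2% of all genes tested were called. In shBUB3 cells 4 were lower and 2 higher of 8, with 65.2% of all genes called. Without the third shBUB3 library 7 of 8 were called, where 9017 of 12473 genes were called. In shFOXA1 cells 4 were higher and 2 lower of 8, with 70.3% of all genes called. In siEZH2 cells 5 were lower and 2 higher of 8, with 63.3% of all genes called. In shFoxA1 cells 5 were higher and 2 lower of 7, where 49.2% of all genes were called. Shares of this height leave little to be read from the counts themselves, so the sizes are given too. The median absolute change of the factors was 0.75 in shFOXA1 cells and 0.67 in shFoxA1 cells, beside 0.41 and 0.18 over all genes tested. It was 0.42 in shUSP7, 0.51 in shBUB3 and 0.53 in siEZH2 cells, beside 0.32, 0.35 and 0.35 over all genes. The factors were chosen with earlier results of these data known, and no genes matched for level were compared. The excess over all genes was therefore not tested.

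The scaling of the libraries bears on the smaller changes. FPKM and RPKM divide by the library total, and rescaling by median ratios moved the median change of all genes by 0.15 in shFOXA1 and 0.18 in siEZH2 cells. In WT and K295A cells against pGIPZ it moved by -0.09 and -0.11. After it, genes called higher made up 49.2% of the calls in shFOXA1 cells, against 35.9% as deposited, and 51.2% in siEZH2 cells, against 32.1%. Where it changed the call of a factor or moved a called change by over 1.5 times, the rescaled value is given.

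**Figure D2:**
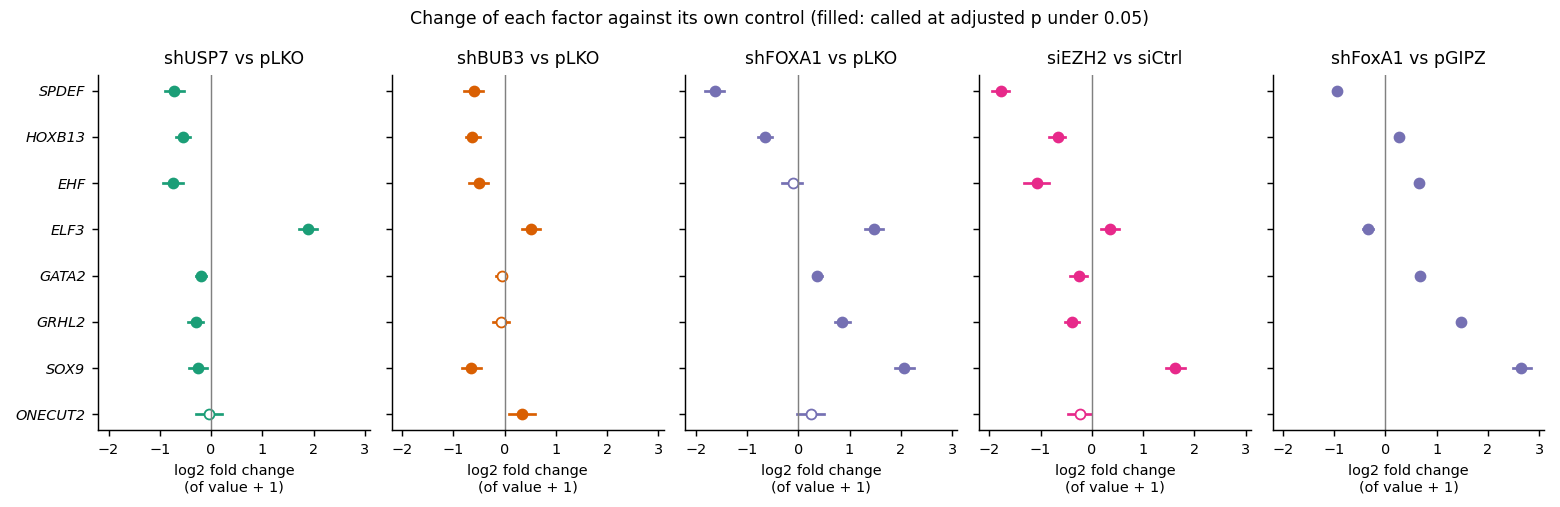
Log2 fold change of each factor against its own control, with 95% intervals from limma; filled points were called at adjusted p under 0.05 and open points were not. SPDEF lies left of 0 in all 5 panels, and SOX9 lies far right in the panels of both FOXA1 knockdowns and of siEZH2. ONECUT2 was not tested in the third experiment.

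HOXB13, the homeodomain factor that marks the prostate lineage, fell in all 4 knockdowns of the first 2 experiments. It is annotated at chr17:48724763-48729178 (GRCh38, minus strand). It stood at 74.2, 76.2 and 82.3 FPKM in shUSP7 cells, 69.5, 71.5 and 78.9 in shBUB3 cells and 71.5, 75.9 and 69.3 in shFOXA1 cells, against 112, 114 and 114 in pLKO cells. The log2 changes were -0.55 ± 0.06, -0.63 ± 0.06 and -0.65 ± 0.06 (SE), with adjusted p of 1.1e-05, 3.4e-06 and 1.9e-06. No pair of these 3 knockdowns differed past the threshold, and the 95% intervals of the differences ran from -0.05 to 0.22 for shUSP7 against shBUB3, from -0.24 to 0.03 for shFOXA1 against shUSP7 and from -0.15 to 0.11 for shFOXA1 against shBUB3. After rescaling, HOXB13 was higher in shFOXA1 than in shBUB3 cells by 0.21 (adjusted p = 0.0089), and without the third shBUB3 library it was higher in shUSP7 than in shBUB3 cells by 0.13 (adjusted p = 0.027). In siEZH2 cells it stood at 67.5, 61 and 59 FPKM, against 100.3, 100.3 and 100.1 in siCtrl cells, a change of -0.67 ± 0.07 (adjusted p = 1.6e-05).

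In the third experiment HOXB13 went the other way. It stood at 128, 128 and 129.9 RPKM in shFoxA1 cells, against 107, 105 and 106 in pGIPZ cells (0.27 ± 0.02, adjusted p = 1.3e-06). The 3 highest of the 6 libraries were the 3 shFoxA1 libraries.

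GATA2, a zinc-finger factor that opens enhancers, was higher in both FOXA1 knockdowns and slightly lower in shUSP7 cells. The GATA2 gene is at chr3:128479427-128493185 (GRCh38, minus strand). It stood at 78.3, 82.4 and 81.9 FPKM in shFOXA1 cells, against 62.6, 61.7 and 62.8 in pLKO cells (0.37 ± 0.04, adjusted p = 1.1e-05). It stood at 79.4, 83.0 and 80.2 RPKM in shFoxA1 cells, against 50.1, 49.9 and 51.3 in pGIPZ cells (0.67 ± 0.03, adjusted p = 8.2e-09). The groups did not overlap in either experiment. GATA2 averaged 54.4 ± 1.11 FPKM in shUSP7 cells, a change of -0.19 ± 0.04 (adjusted p = 0.002), and 59.7 ± 1.64 in shBUB3 cells, a change of -0.06 that was not called (adjusted p = 0.22). That change was called after rescaling (-0.12, adjusted p = 0.023) and, with shBUB3 library 3 left out, at -0.08 (adjusted p = 0.032). In siEZH2 cells it averaged 51.6 ± 3.31 FPKM, against 61.7 ± 3.52 in siCtrl cells (-0.25, adjusted p = 0.013), and the call was lost after rescaling (-0.05, adjusted p = 0.62). It was lost as well without the second siEZH2 library (adjusted p = 0.059) or without the first siCtrl library (adjusted p = 0.052).

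GATA2-AS1, transcribed from the opposite strand of the GATA2 locus with no shared exon, was higher in shFOXA1 (0.30) and shFoxA1 cells (0.37) too. It differed from GATA2 in shBUB3 cells, where GATA2-AS1 was higher by 0.37. The kit is named without its strand setting, so reads of overlapping genes may not be separable. GATA3, the luminal factor of breast epithelium, gave no level to compare in any group.

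SPDEF, a prostate-enriched ETS factor first described on the promoter of the PSA gene, was lower in every knockdown. The gene occupies chr6:34537802-34556333 (GRCh38, minus strand). It stood at 26.1, 29.1 and 23.9 FPKM in shFOXA1 cells, against 82.3, 87.7 and 80.7 in pLKO cells, or 0.315 of the control level (-1.63 ± 0.08, adjusted p = 1.1e-08). In shUSP7 cells it stood at 52.1, 51.5 and 47.7 FPKM (-0.72 ± 0.08, adjusted p = 1.7e-05), and in shBUB3 cells at 51.2, 51.8 and 61.7 FPKM (-0.60 ± 0.08, adjusted p = 6.7e-05). The level in shFOXA1 cells lay below all 6 values of the other 2 knockdowns. The difference was -0.91 ± 0.08 against shUSP7 and -1.03 ± 0.08 against shBUB3 cells, with adjusted p of 1.6e-06 and 4.9e-07.

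SPDEF had its lowest values in siEZH2 cells, at 22.5, 20.8 and 22.4 FPKM, against 79.7, 72.3 and 81.6 in siCtrl cells, or 0.281 of the control level (-1.78 ± 0.07, adjusted p = 5.9e-08). In shFoxA1 cells it stood at 45.0, 43.8 and 43.7 RPKM, against 81.9, 87.2 and 87.3 in pGIPZ cells (-0.94 ± 0.03, adjusted p = 9e-10). SPDEF was thus the factor with the largest fall in shFOXA1, siEZH2 and shFoxA1 cells.

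EHF, an ETS factor of differentiated epithelium, was lower in shUSP7, shBUB3 and siEZH2 cells and not in the FOXA1 knockdowns. EHF is annotated at chr11:34621093-34661057 (GRCh38, plus strand). It stood at 53.9, 55.3 and 54.0 FPKM in shUSP7 cells and 69.1, 71.5 and 53.3 in shBUB3 cells, against 92.3, 91.1 and 92.0 in pLKO cells. The low value in shBUB3 cells was that of the third library, and without it the change was -0.38, against -0.51 with all 3 (adjusted p = 9.8e-07 and 0.00033). The change was -0.74 ± 0.09 in shUSP7 cells (adjusted p = 1.8e-05). In siEZH2 cells EHF stood at 64.3, 48.6 and 48.2 FPKM, against 117, 117 and 106 in siCtrl cells (-1.08 ± 0.11, adjusted p = 1.4e-05).

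After FOXA1 knockdown, EHF averaged 84.9 ± 2.36 FPKM in shFOXA1 cells, a change of -0.11 with an interval from -0.31 to 0.08 (adjusted p = 0.28). Rescaling turned this to 0.06 (adjusted p = 0.52), and a fit of the 2 groups alone called it lower (-0.11, adjusted p = 0.016). In the third experiment it was higher in shFoxA1 cells, at 110.5, 110 and 113.5 RPKM, against 73.2, 69.1 and 68.8 in pGIPZ cells (0.66 ± 0.03, adjusted p = 1e-08).

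ELF3, an ETS factor of simple epithelia that responds to stress and cytokines, rose in all 4 knockdowns of the first 2 experiments. ELF3 is annotated at chr1:202007945-202017188 (GRCh38, plus strand). It stood at 44.7, 47.3 and 45.4 FPKM in shUSP7 cells, 16.1, 15.7 and 19.6 in shBUB3 cells and 34, 32.5 and 36.5 in shFOXA1 cells, against 12.3, 11.9 and 10.8 in pLKO cells. The changes were 1.89 ± 0.08, 0.51 ± 0.08 and 1.48 ± 0.08, with adjusted p of 4e-09, 0.00017 and 1.7e-08. None of the 4 groups overlapped another. All pairs were called, shUSP7 over shBUB3 by 1.37 (adjusted p = 6.2e-08), shFOXA1 under shUSP7 by -0.41 (adjusted p = 0.00078) and shFOXA1 over shBUB3 by 0.97 (adjusted p = 5.7e-07). Rescaling made the middle one -0.23 (adjusted p = 0.024).

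In siEZH2 cells ELF3 stood at 20.4, 20.9 and 23.0 FPKM, against 15.8, 16.3 and 17.6 in siCtrl cells (0.35 ± 0.08, adjusted p = 0.0025), and at 0.55 after rescaling. In shFoxA1 cells it was lower, at 39.4, 36.6 and 37.2 RPKM, against 48.5, 46 and 50.03 in pGIPZ cells (-0.34 ± 0.04, adjusted p = 3.4e-05). The control level itself differed between the experiments, at 48.2 RPKM in pGIPZ, 11.7 FPKM in pLKO and 16.6 FPKM in siCtrl cells, values from separately normalized tables that were not tested. ELF3-AS1 and a second annotated transcript share exonic positions with ELF3, so part of its value may come from them.

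The promoters of SPDEF and EHF are shown because the 2 genes fell in most knockdowns and each holds a match to a forkhead motif, the DNA letters that FOXA1 and its relatives bind; ELF3, which holds none, is shown beside them. They come from the RefSeq promoter table (GRCh38.p14), 250 bases before to 50 after the annotated start, 5′ to 3′ on the gene's strand. Capitals mark forkhead matches, here TATTTAC read on the opposite strand of SPDEF and TGTTTAC on the strand of EHF.
SPDEF, chr6:34556280-34556579, minus strand: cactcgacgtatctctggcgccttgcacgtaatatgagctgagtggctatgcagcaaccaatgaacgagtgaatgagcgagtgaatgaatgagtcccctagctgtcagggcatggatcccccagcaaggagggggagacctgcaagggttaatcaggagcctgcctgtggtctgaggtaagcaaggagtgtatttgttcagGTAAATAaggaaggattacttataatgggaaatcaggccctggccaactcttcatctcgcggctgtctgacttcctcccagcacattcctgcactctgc
EHF, second listed start, chr11:34632316-34632615, plus strand: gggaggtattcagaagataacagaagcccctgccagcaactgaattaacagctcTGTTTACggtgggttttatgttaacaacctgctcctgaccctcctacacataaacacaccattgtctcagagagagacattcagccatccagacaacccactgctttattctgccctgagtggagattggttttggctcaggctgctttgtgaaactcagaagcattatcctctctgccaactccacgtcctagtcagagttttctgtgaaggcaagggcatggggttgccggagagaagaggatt
ELF3, chr1:202010337-202010636, plus strand: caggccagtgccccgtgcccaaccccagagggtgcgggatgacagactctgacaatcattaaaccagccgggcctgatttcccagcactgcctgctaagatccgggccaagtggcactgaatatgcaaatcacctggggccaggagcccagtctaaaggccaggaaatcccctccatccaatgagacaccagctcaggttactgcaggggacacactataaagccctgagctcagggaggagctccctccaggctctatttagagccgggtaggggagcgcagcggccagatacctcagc

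The match of SPDEF begins 49 bases before the start and that of EHF 196 bases before it. The forkhead letters TGTTTAC, searched like all motifs here on both strands, were in 3.42% of the 35116 promoters of this length. The letters TATTTAC were in 2.67% and the letters TGTTTGC in 3.89% of them, and any of the 3 in 9.57%. The table held 13 promoters for 6 of the 9 factors, and 3 of the 13 had a match, the third being the first listed start of GATA3 (TGTTTGC, 138 bases before it). The second start of EHF also holds the GATA letters AGATAA, found in 10.3% of promoters. The ETS letters CGGAAG (19.5% of promoters), the grainyhead letters AACNNGTT (3.52%), the HOXB13 letters CAATAAA (4%) and the SOX letters AACAAT (10.1%) matched in none of the 3 printed windows. GATA2, ONECUT2 and the first listed start of EHF had no forkhead match in these windows. HOXB13, GRHL2 and SOX9 had no listed promoter of this length. EHF was not called lower in either FOXA1 knockdown in the main fits. A link between the matches and the changes was not tested.

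GRHL2, the grainyhead factor that maintains CDH1 and other junction genes, was higher in both FOXA1 knockdowns. GRHL2 is annotated at chr8:101492432-101669726 (GRCh38, plus strand). It stood at 52.4, 54.6 and 54.7 FPKM in shFOXA1 cells, against 30.6, 28.2 and 29.1 in pLKO cells (0.86 ± 0.07, adjusted p = 4.2e-07). In shFoxA1 cells it stood at 74.8, 76.5 and 76.7 RPKM, against 25.7, 27.6 and 26.8 in pGIPZ cells, 2.85-fold the control level (1.48 ± 0.03, adjusted p = 8.5e-12). GRHL2 was lower in shUSP7 cells (23.6 ± 0.472 FPKM, -0.30, adjusted p = 0.0024) and in siEZH2 cells (25.1 ± 0.432 FPKM, against 33.2 ± 0.825 in siCtrl cells, -0.39, adjusted p = 0.00037). The siEZH2 change was -0.19 after rescaling (adjusted p = 0.025). In shBUB3 cells it averaged 28 ± 2.95 FPKM and overlapped pLKO (-0.07, adjusted p = 0.37), and the sign turned (0.02) without the third shBUB3 library. An antisense transcript, AP001207.3, shares exonic positions with GRHL2.

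SOX9 had the largest change of the factors tested in shFOXA1 and in shFoxA1 cells, and was higher in siEZH2 cells too. SOX9 is annotated at chr17:72121020-72126420 (GRCh38, plus strand). It stood at 9.31, 8.77 and 9.06 FPKM in shFOXA1 cells, against 1.28, 1.69 and 1.24 in pLKO cells, or 6.45-fold the control level (2.07 ± 0.08, adjusted p = 1.3e-09). It stood at 10.8, 10.9 and 10.3 FPKM in siEZH2 cells, against 2.99, 2.87 and 2.51 in siCtrl cells, 3.83-fold (1.63 ± 0.08, adjusted p = 2.3e-07). In shFoxA1 cells it reached 21.6, 22.1 and 20.8 RPKM, against 2.41, 2.80 and 2.53 in pGIPZ cells, 8.34-fold (2.65 ± 0.08, adjusted p = 1.9e-10). In these 3 comparisons the lowest knockdown library stood above 3 times the highest control library.

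In shBUB3 cells SOX9 was lower, at 0.499, 0.651 and 0.427 FPKM (-0.65 ± 0.08, adjusted p = 2.9e-05), and -1.27 with a pseudocount of 0.1. It was slightly lower in shUSP7 cells, at 0.969, 0.964 and 1.10 FPKM (-0.25 ± 0.08, adjusted p = 0.019), or -0.43 with a pseudocount of 0.1. That last call was lost without the first or second shUSP7 library or the second pLKO library (adjusted p of 0.056, 0.058 and 0.088). SOX9-AS1 stayed at or below 0.0557 in all libraries.

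ONECUT2 was near the filter in all groups, between 0.696 in pGIPZ and 2.42 in siCtrl libraries, and was not tested in the third experiment. The gene is annotated at chr18:57435685-57491297 (GRCh38, plus strand). It stood at 1.88, 1.87 and 1.03 FPKM in shBUB3 cells, against 1.12, 0.941 and 0.993 in pLKO cells (0.34 ± 0.12, adjusted p = 0.023). The third shBUB3 library lay among the pLKO values and the others above them, and without it the change was 0.51 (adjusted p = 6.5e-05). The call was lost without the first or second shBUB3 library (adjusted p of 0.094 and 0.092) or the second or the third pLKO library (0.071 and 0.061), and in a fit of the 2 groups alone (adjusted p = 0.075). The changes in shUSP7 (-0.04), shFOXA1 (0.24) and siEZH2 cells (-0.24) were not called, with adjusted p of 0.8, 0.092 and 0.056. The shFOXA1 change was called after rescaling (0.34, adjusted p = 0.022) and in a fit of the 2 groups alone (adjusted p = 0.016), and the siEZH2 change was called without the first siEZH2 library (-0.30, adjusted p = 0.032) and became -0.10 after rescaling. ONECUT2 averaged 0.968 ± 0.131 RPKM with K295A, 0.986 ± 0.0536 with WT, 0.79 ± 0.0222 with shFoxA1 and 0.744 ± 0.044 in pGIPZ.

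The 3 knockdowns of the first experiment were also compared with each other. Between shUSP7 and shBUB3 cells 6 of 8 factors were called, 2 higher and 4 lower in shUSP7, with 65.2% of all genes called. In a fit of these 2 groups alone 7 factors passed the filter and only ELF3 was called, with adjusted p of 0.12, 0.095, 0.054 and 0.053 for EHF, GATA2, GRHL2 and ONECUT2. That fit called 6755 of 11646 genes. SOX9, at 0.40 higher in shUSP7 in the fit of all 4 groups (adjusted p = 0.0012), did not pass the filter there and was not tested. After rescaling the calls of GATA2 (-0.08, against -0.13 as deposited) and EHF (-0.18, against -0.23) were lost, with adjusted p of 0.13 and 0.081. The EHF call was also lost without any 1 of the 3 shUSP7 libraries or the first or second shBUB3 library (adjusted p of 0.065 to 0.14), and without the third shBUB3 library EHF was lower by -0.36. GATA2 lost its call without the first shUSP7 library (adjusted p = 0.077), and ONECUT2 without the first or second shBUB3 library (0.059 and 0.058). Against shUSP7 cells, shFOXA1 cells had 4 factors higher and 2 lower of 8, with 70.9% of all genes called. SOX9 (2.32), GRHL2 (1.16), EHF (0.63) and GATA2 (0.56) were higher, and SPDEF and ELF3 lower. ONECUT2 was not called there (0.28, adjusted p = 0.055), but was after rescaling (0.38, adjusted p = 0.012) and in a fit of the 2 groups alone (adjusted p = 0.0067). Against shBUB3 cells, shFOXA1 cells had 5 higher and 1 lower of 8, with 73.4% of all genes called. SOX9 differed most, at 17.2-fold the level in shBUB3 cells (2.72 ± 0.08, adjusted p = 1.9e-10), and EHF was higher by 0.40 (adjusted p = 0.0015), or 0.63 after rescaling. GATA2 was higher by 0.43 (adjusted p = 2.6e-06), or 0.67 after rescaling. ONECUT2 was not called (-0.11, adjusted p = 0.44), but was lower without the third shBUB3 library (-0.27, adjusted p = 0.0047). The higher share of called genes was 53.3% after rescaling, against 39.6% as deposited, for shFOXA1 against shUSP7, and 52.4%, against 37.6%, for shFOXA1 against shBUB3.

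Re-expression of FOXA1 in the third experiment asked whether changes of shFoxA1 cells go back, and whether K295A acts like WT. Against shFoxA1 cells, WT had 1 factor higher and 5 lower of 7, with 55.5% of all genes called, and K295A also had 1 higher and 5 lower of 7, with 56.9% called. Of the called genes, 48.9% were higher in WT and 48.3% in K295A after rescaling, against 65.9% and 67.9% as deposited. SOX9 returned to its pGIPZ level. It stood at 2.32, 2.50 and 2.93 RPKM with K295A and at 2.59, 2.84 and 2.17 RPKM with WT, against 21.6, 22.1 and 20.8 with shFoxA1 alone. The changes against shFoxA1 were -2.65 with K295A and -2.67 with WT, with adjusted p of 2e-10 and 1.7e-10, which undid 100% and 101% of the change in shFoxA1 cells.

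GRHL2, SPDEF and GATA2 went back most of the way. GRHL2 stood at 30.2, 29.2 and 29.6 RPKM with K295A and 29.4, 30.03 and 29.1 with WT, which undid 90% and 90.4% of its log2 change in shFoxA1 cells. SPDEF stood at 79.8, 80.6 and 81.8 RPKM with K295A and 78.1, 82.3 and 75.9 with WT, or 91.4% and 87.5% recovered. GATA2 stood at 55.2, 59.4 and 57.8 RPKM with K295A and 54.9, 54.1 and 56.5 with WT, or 72.5% and 81.1% recovered. These recovered values share the shFoxA1 and pGIPZ libraries and are given without a test. All recovered values use the deposited scale. After rescaling, the difference left from pGIPZ was -0.21 with K295A and -0.22 with WT for SPDEF. For GATA2 it was 0.06 and 0.02, and for GRHL2 0.02 and 0.04. Which of SPDEF and GATA2 came closer to pGIPZ thus changed with scaling.

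EHF, HOXB13 and ELF3 did not follow that pattern. EHF stood at 95.8, 95.8 and 90.3 RPKM with K295A and 93.4, 90.7 and 91.5 with WT, between shFoxA1 and pGIPZ cells, or 37.1% and 41.9% recovered. Against shFoxA1 the K295A change was -0.24, or -0.36 after rescaling. HOXB13 stood at 130.8, 125 and 130.8 RPKM with K295A and 125, 128 and 129 with WT, and neither differed from shFoxA1 past the threshold (0.00 and -0.02, adjusted p of 0.92 and 0.55). After rescaling it was lower than in shFoxA1 cells in both, by -0.12 and -0.12 (adjusted p of 0.0012 and 0.0011). ELF3 went further down, to 21.7, 21.9 and 21.5 RPKM with K295A and 20.1, 19.8 and 18.4 with WT, against 39.4, 36.6 and 37.2 with shFoxA1 (-0.77 and -0.92, adjusted p of 2.9e-08 and 5.5e-09). Its 6 re-expression libraries all lay below the 3 shFoxA1 libraries, which lay below the 3 pGIPZ libraries.

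**Figure D3:**
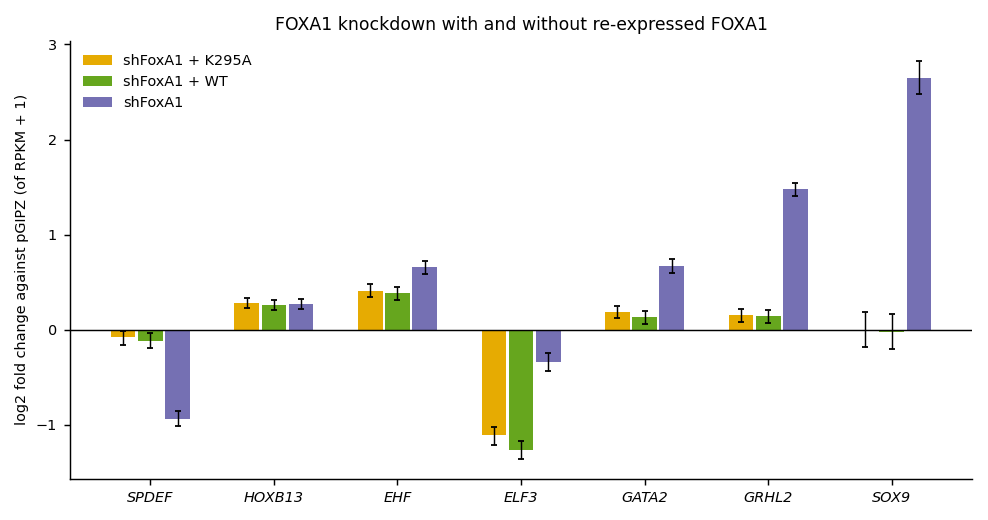
Log2 fold change against pGIPZ of the 7 factors tested in the third experiment, for shFoxA1 with K295A, shFoxA1 with WT and shFoxA1 alone; bars start at 0 and error bars are 95% intervals from limma. The shFoxA1 bars of SPDEF, GATA2, GRHL2 and SOX9 are far longer than those of K295A and WT, the 3 bars of HOXB13 are alike, and ELF3 is lowest in K295A and WT.

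Against the pGIPZ control, K295A had 4 factors higher and 1 lower of 7, with 50.5% of all genes called, and WT had 4 higher and 2 lower of 7, with 45.5% called. Of the called genes, 48.4% were higher in K295A and 47.8% in WT after rescaling, against 74.7% and 74% as deposited. EHF was higher by 0.41 with K295A and 0.38 with WT, and HOXB13 by 0.28 and 0.26, or 0.15 and 0.15 after rescaling. The smaller differences of GATA2 (0.18 and 0.13) and GRHL2 (0.15 and 0.14) were called, and none of these 4 was after rescaling (0.06, 0.02, 0.02 and 0.04). SPDEF was 0.12 lower on the log2 scale with WT (-0.12, adjusted p = 0.016), and the change of -0.08 with K295A was not called (adjusted p = 0.071). After rescaling both were called, at -0.22 with WT and -0.21 with K295A, and without the first pGIPZ library the K295A change was too (-0.11, adjusted p = 0.02). The WT call was lost in a fit of the 2 groups alone (adjusted p = 0.052), and without the third WT library (0.067) or the second or the third pGIPZ library (0.06 each). SOX9 was within 0.02 of pGIPZ in both, with intervals from -0.18 to 0.18 for K295A and from -0.20 to 0.16 for WT.

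K295A was set directly against WT, and no factor was called (0 of 7), where 0.183% of all genes tested, 23 of 12563, were called by limma. At an unadjusted p under 0.05 there was 1 factor, ELF3, and 1310 of all genes. ELF3 averaged 21.7 ± 0.178 RPKM with K295A and 19.4 ± 0.876 with WT, without overlap (0.15, interval 0.06 to 0.25, adjusted p = 0.22). The intervals of the other factors were -0.04 to 0.10 for EHF, -0.01 to 0.13 for GATA2, -0.06 to 0.07 for GRHL2, -0.03 to 0.07 for HOXB13, -0.04 to 0.11 for SPDEF and -0.16 to 0.20 for SOX9. Differences within these bounds are not shown to be absent.

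The 2 FOXA1 knockdowns came from different vectors and separate tables, and the labels do not say whether the hairpin was the same. FOXA1 RNA stood at 50.9% of its control in shFOXA1 and 62.7% in shFoxA1 cells. Of 7 factors tested in both, 6 were called in both, 4 in the same direction (SPDEF, GATA2, GRHL2 and SOX9) and 2 in opposite directions (HOXB13 and ELF3). Over all genes, 4482 were called in both and 27.2% of them in opposite directions. HOXB13 changed by -0.65 in shFOXA1 and 0.27 in shFoxA1 cells, and ELF3 by 1.48 and -0.34.

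**Figure D4:**
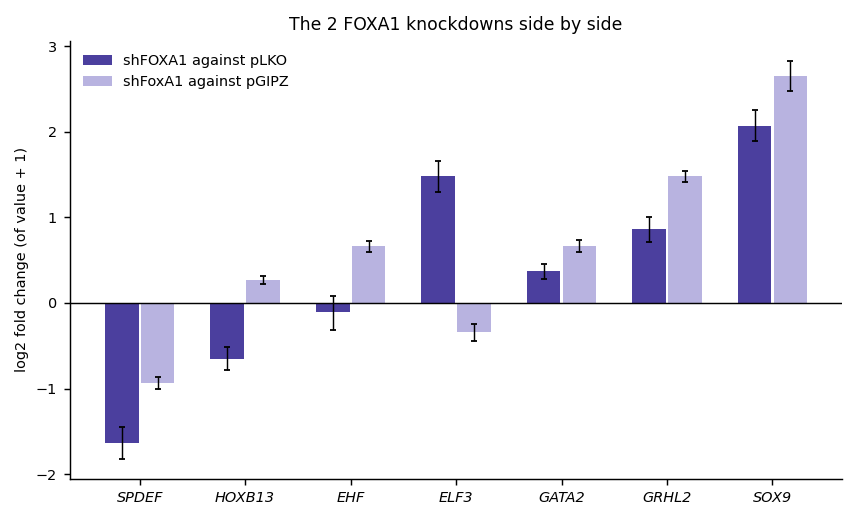
Log2 fold change of 7 factors in shFOXA1 against pLKO and in shFoxA1 against pGIPZ, with 95% intervals from limma; bars start at 0. SPDEF, GATA2, GRHL2 and SOX9 point the same way in both knockdowns, HOXB13 and ELF3 point opposite ways, and the interval of EHF includes 0 in the first.

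Over all genes tested, the median change was -0.02 in shUSP7, 0.01 in shBUB3, -0.15 in shFOXA1, -0.16 in siEZH2 and 0.00 in shFoxA1 cells. Relatives of the factors gave a mixed picture. Of 30 paralogs, 12 were tested in the first experiment. In shFOXA1 cells 7 were higher and 1 lower, with a median change of 0.67, and HOXC13, a posterior HOX paralog, stood at 14.8 FPKM, against 3.77 in pLKO cells (1.73, adjusted p = 3e-10). In shFoxA1 cells 9 were higher and 1 lower of 13, with a median of 0.43, and SOX4, an HMG-box factor like SOX9, stood at 66 RPKM, against 31.8 in pGIPZ cells (1.03, adjusted p = 1.1e-10). SOX4 was highest in siEZH2 cells, at 134 FPKM against 23.6 in siCtrl cells (2.46, adjusted p = 2.2e-08), where 4 paralogs were higher and 2 lower of 10 (median 0.09). SOX4 and SOX9 went opposite ways in shUSP7 cells, where SOX4 stood at 100 FPKM, against 37.1 in pLKO cells (1.41, adjusted p = 3.1e-10), and 6 paralogs were higher and 4 lower of 12 (median 0.04). In shBUB3 cells 4 were higher and 4 lower of 12 (median -0.00), and SOX4 stood at 13.1 FPKM (-1.43, adjusted p = 2.3e-10). After rescaling 10 paralogs were higher and 1 lower in shFOXA1 cells (median 0.84), and 6 and 1 in siEZH2 cells (0.29). Without the third shBUB3 library 5 were higher and 4 lower in shBUB3 cells. The shares of all genes called, as deposited and under these alternatives, are given below with the luminal secretory genes.

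Of 17 tested regulators of luminal cells outside the 9, FOXA1 among them, 4 were higher and 6 lower in shUSP7 cells (median -0.07), 2 and 7 in shBUB3 (-0.10), 6 and 8 in shFOXA1 (-0.28), 2 and 8 in siEZH2 (-0.05), and 10 and 5 in shFoxA1 cells (0.20). After rescaling 7 were higher and 7 lower in siEZH2 cells, and without the third shBUB3 library 7 were higher and 7 lower in shBUB3 cells. PIAS1 stood at 15.1 RPKM in shFoxA1 cells, against 5.94 in pGIPZ cells (1.21, adjusted p = 1.6e-07). XBP1, a factor of secretory cells, stood at 56.8 RPKM in shFoxA1 cells, against 117 in pGIPZ cells (-1.03, adjusted p = 4.1e-10). Of 20 partner and cofactor genes, 13 were tested (14 with siEZH2). There 6 were higher and 2 lower in shUSP7 (median 0.13), 1 and 3 in shBUB3 (-0.13), 3 and 4 in shFOXA1 (0.06), 3 and 4 in siEZH2 (-0.10), and 8 and 1 in shFoxA1 cells (0.23). After rescaling 7 were higher and 3 lower in shFOXA1 and 6 and 2 in siEZH2 cells, and without the third shBUB3 library 3 and 2 in shBUB3 cells. The corepressor TLE3 was lower in both FOXA1 knockdowns, at 12.5 FPKM in shFOXA1 cells, against 26.6 in pLKO cells, and at 18.0 RPKM in shFoxA1 cells, against 27.5 in pGIPZ cells. NCOR1 was higher in shFoxA1 cells, at 32.1 RPKM against 14.7 in pGIPZ cells (1.07, adjusted p = 4.6e-10).

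Of 20 luminal secretory genes, 6 were higher and 10 lower in shUSP7 (median -0.34), 3 and 13 in shBUB3 (-0.73), 5 and 12 in shFOXA1 (-0.41), 2 and 17 in siEZH2 (-1.12), and 9 and 11 in shFoxA1 cells (-0.14). Over all genes tested, 29.1% were higher and 33% lower in shUSP7, 33.3% and 32% in shBUB3, 25.2% and 45.1% in shFOXA1, 20.3% and 43% in siEZH2, and 25% and 24.2% in shFoxA1 cells. After rescaling, 8758 of 12569 genes were called in shFOXA1 cells, 4311 of them higher. In siEZH2 cells 7550 of 11925 were then called, 3864 of them higher. Without the third shBUB3 library 9017 of 12473 were called in shBUB3 cells, 4720 of them higher. Against pGIPZ, 4 of these 20 were higher and 13 lower in K295A and 5 and 14 in WT, where 37.8% and 12.8% of all genes were in K295A and 33.7% and 11.8% in WT. SLC45A3, the prostein gene, stood at 3.54 FPKM in shFOXA1 cells, against 95 in pLKO cells (-4.41, adjusted p = 9.3e-12). KLK3, which encodes PSA, stood at 201 FPKM in siEZH2 cells, against 1310 in siCtrl cells (-2.72, adjusted p = 4.3e-08). Of 20 epithelial identity genes, 8 were higher and 7 lower in shUSP7 (median 0.02), 7 and 8 in shBUB3 (0.05), 11 and 4 in shFOXA1 (0.35), 5 and 8 in siEZH2 (-0.09), and 2 and 12 in shFoxA1 cells (-0.24). The siEZH2 split was 7 and 7 after rescaling. CDH1, the junction gene that GRHL2 maintains, stood at 31.8 FPKM in shBUB3 cells, against 151 in pLKO cells (-2.23, adjusted p = 6.1e-10), where GRHL2 was not called. CDH1 was higher with GRHL2 in shFOXA1 cells, at 309 FPKM against 151 in pLKO cells (1.02, adjusted p = 2.8e-07). It was lower, as GRHL2 was, in shUSP7 cells at 112 FPKM (-0.43, adjusted p = 0.00046) and in siEZH2 cells at 87.8 FPKM, against 176 in siCtrl cells (-0.99, adjusted p = 8.2e-07). In shFoxA1 cells, where GRHL2 was higher, CDH1 stood at 151 RPKM, against 156 in pGIPZ cells, and was not called (-0.05, adjusted p = 0.18).

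Markers of other cell types were low but moved with some groups. The 10 basal markers summed to 24.4 to 26.0 RPKM in shFoxA1 libraries and 12.8 to 13.5 in pGIPZ libraries, with 2 of 3 tested called higher and 0 lower. They summed to 8.15 to 8.99 FPKM in shFOXA1 and 11 to 12 in pLKO libraries, with 2 of 3 tested called higher and 1 lower (median 0.95). ITGA6, a basal integrin, stood at 16.2 RPKM in shFoxA1 cells, against 7.27 in pGIPZ cells (1.06), and at 3.22 FPKM in shFOXA1 cells, against 9.07 in pLKO cells (-1.25). KRT15, a basal keratin, stood at 1.42 FPKM in shFOXA1 cells, against 0.138 in pLKO cells (1.10, adjusted p = 3.5e-07), and at 0.817 RPKM in shFoxA1 cells, against 1.22 in pGIPZ cells, which was not called (-0.30, adjusted p = 0.11). The remaining tested basal marker of each comparison was called higher, by 0.95 in shFOXA1 and by 1.05 in shFoxA1 cells. The 10 stromal markers summed to 28.0 to 32.1 FPKM in siEZH2 and 10.2 to 11.6 in siCtrl libraries, with 3 of 5 tested called higher. VIM among them stood at 9.63 FPKM in siEZH2 cells, against 0.872 in siCtrl cells (2.53, adjusted p = 2.6e-07). Stromal sums were 20.9 to 25.5 FPKM in shBUB3 and 11.5 to 12 in pLKO libraries, with 3 of 5 called higher and 1 lower. They were 28.2 to 29.1 RPKM in shFoxA1 and 17 to 18.9 in pGIPZ libraries, with 3 of 4 called higher and 1 lower. In shUSP7 and in shFOXA1 cells 1 of 5 was higher and 3 were lower.

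Of 10 immune markers only CD68 was tested. It stood at 33.7 RPKM in shFoxA1 cells, against 13.2 in pGIPZ cells (1.29), and was higher by 0.28 in shFOXA1 cells. It was lower in shUSP7 (-0.69) and shBUB3 cells (-0.48), as well as in K295A (-0.39) and WT (-0.50) against pGIPZ. Of 12 neuroendocrine markers ENO2 was lower in shUSP7 and shFOXA1 cells (-1.05 in each) and in siEZH2 cells (-0.45). Of 6 endothelial markers VWF was lower in shFOXA1 (-1.22) and shFoxA1 cells (-0.31), and higher in shUSP7 (0.98) and shBUB3 cells (0.61). Their part in the changes of the 9 factors was not tested, and in bulk RNA fewer cells with a transcript and less of it per cell cannot be told apart.

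For the 6 factors whose own root mean square change over the 7 non-control groups reached 0.5, the genes with the most similar changes were sought among 11545 genes, by the root mean square difference of log2 changes. The comparisons share control libraries, so the values describe likeness only. HOXB13 was nearest to TAF4B (0.09), R3HDM1 (0.11) and HNRNPAB (0.12), where the median over all genes was 0.57. EHF was nearest to KCNK1 (0.11), PURB (0.15) and FAM60A (0.15), beside a median of 0.68. SPDEF was nearest to C1orf116 (0.23), ERMP1 (0.28) and INPP4B (0.28), beside 1.03, and GRHL2 to GK5 (0.25), ZNF706 (0.25) and IL6R (0.27), beside 0.79. ELF3 was nearest to BBC3 (0.29), FAS (0.44) and HELZ2 (0.46), beside 1.26. BBC3 changed by 1.70 in shUSP7, 0.57 in shBUB3, 1.16 in shFOXA1 and -0.42 in shFoxA1 cells, with the same signs as ELF3. SOX9 was nearest to ENC1 (0.38), SEMA3C (0.56) and MME (0.61), beside 1.55. The median over all genes rose with a factor's own change, so the 6 factors are not ranked by these differences.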

How the data were processed

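Gene-level RNA of 30 LNCaP libraries was measured. The values are those the authors deposited: FPKM for pLKO and siRNA libraries, RPKM for pGIPZ libraries, that is, reads divided by gene length and library total. The submitters' processing notes name STAR as aligner and hg38 as build. No counter, annotation or STAR version is named in those notes. Each table lists 26475 genes, of which 32 had no values. Neither table gives read totals, so depth is known only relatively and counting intervals were not computed; 0 pairs of libraries were identical.

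Values were taken as log2(value + 1). Genes at 1 or more in at least 3 libraries of an experiment were fitted in limma 3.58.1 (R 4.3.3), 1 fit per experiment, with group means, an intensity trend and two-sided moderated tests. Benjamini-Hochberg adjustment ran over all genes tested in each of 13 comparisons, and adjusted p under 0.05 was a call. With 3 libraries a side, exact permutation p-values stop at 0.1. The fit was tested on simulated data. Intervals are 95% intervals of the log2 change. Recovery is the log2 change of re-expression against shFoxA1 as a percentage of minus the change of shFoxA1 against pGIPZ.

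Named besides the 9 factors were the targeted genes and from each of 10 lists up to 2 called genes per comparison with the largest change, a mean of 1 and no overlap; some of these are left out. The lists are other luminal regulators, partners and cofactors, paralogs, epithelial and luminal secretory genes, and basal, neuroendocrine, stromal, immune and endothelial markers. Some genes that these rules name are not reported here. GATA2-AS1 and the annotated overlaps of members were named for their position. The members and lists were chosen with earlier results of these data known. Positions are from GENCODE 29, which may differ from the authors' annotation. Alternatives were a pseudocount of 0.1, no filter, a filter of 5, median-ratio scaling, 2 groups alone, a replicate block, no trend and leaving out each library. Python 3.11.15 with pandas 2.3.3, NumPy 2.4.6, SciPy 1.17.1 and matplotlib 3.10.9 did the rest.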

Additional observations from a re-analysis of the deposited data

Results flagged for a closer look

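Every shFOXA1 library moved one way from its control and every shFoxA1 library the other way for 3 genes, which is what marked them out. The difference itself was not tested, because the tables were normalized separately. HOXB13 changed by -0.65 in shFOXA1 against pLKO cells and by 0.27 in shFoxA1 against pGIPZ cells. ELF3 changed by 1.48 and by -0.34 in the same comparisons. EHF changed by -0.11, which was not called, and by 0.66.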

How the results depend on the processing

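Of 98 results on a factor in a comparison, 74 were called. Of those, 62 kept direction and call under every alternative in which the factor passed the filter, 12 lost the call under at least 1, and 0 changed direction. The number of factors called stayed within 1.5 times its value under every alternative except for shUSP7 against shBUB3, where 1 of 7 tested was called in a fit of the 2 groups alone, against 6 of 8. Over all genes, 8164 of 12524 were called in the main fit and 6755 of 11646 in the fit of the 2 groups alone. SOX9 did not pass the filter there, and why 4 others lost their calls was not tested. Leaving out 1 library at a time gave 6 to 7 factors called for shUSP7, 5 to 7 for shBUB3, 6 for shFOXA1, 6 to 8 for siEZH2, 7 for shFoxA1, 5 to 6 for both WT and K295A against pGIPZ, and 4 to 7 for shUSP7 against shBUB3.

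Directions turned only for changes not called as deposited. Under median-ratio scaling, EHF in shFOXA1 cells became 0.06, HOXB13 0.08 in shFOXA1 against shUSP7 and 0.21 against shBUB3, ONECUT2 0.04 in shFOXA1 against shBUB3, SOX9 -0.09 in K295A against pGIPZ, HOXB13 -0.12 in K295A against shFoxA1, and GRHL2 -0.01 in K295A against WT. A pseudocount of 0.1 made SOX9 -0.00 in K295A against pGIPZ. Without 1 library, the ranges were -0.12 to 0.02 for GRHL2 in shBUB3 against pLKO, -0.06 to 0.03 for HOXB13 in shFOXA1 against shBUB3, -0.08 to 0.06 and -0.07 to 0.05 for SOX9 in WT and K295A against pGIPZ, -0.01 to 0.02 for HOXB13 in K295A against shFoxA1, and -0.01 to 0.02 for GRHL2 and -0.05 to 0.08 for SOX9 in K295A against WT.

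Same-numbered libraries did not deviate together: correlations of their deviations ran from -0.18 to 0.13, and no comparison had all 3 above 0.1. With a replicate block, the factors called stayed the same in number except for shFOXA1 against shUSP7, with 7 in place of 6 (ONECUT2, 0.28, adjusted p = 0.039), and 14 in place of 23 of all genes were called between K295A and WT. Low values limit ONECUT2, SOX9 in pLKO-based groups, and GATA3.

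List counts after rescaling and without the third shBUB3 library were chosen after seeing the data. Without that library 7 factors were called in shBUB3 cells, as were 9017 of 12473 genes.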
